A study of Mus musculus with 4 samples.

Results

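Thyrotropin-releasing hormone (TRH) and thyrotropin signalling was followed through 4 genes, chosen by name. They are Trh, which encodes the hormone precursor, Trhr and Trhr2, which encode the TRH receptors, and Tshr, which encodes the thyrotropin receptor. Their 5 probes, of 56605 non-control probes and 22911 named genes on the array, were found by matching each probe's transcript accession to a RefSeq gene table. To ask whether excess iodine intake altered expression in the brain, messenger RNA was measured on 4 Agilent 1-colour mouse arrays, with dorsal hippocampus RNA of female mice. The 20-fold iodine excess group has 2 arrays and the control group 2, each numbered as replicates 2 and 3. All the mice had been through a set of behavioural tests before the tissue was taken. Strain, age and length of exposure are not given in the sources used here, and nothing says that the replicates were separate animals. Each p-value therefore reflects how far these 4 samples spread, a spread that could be technical. The fit (limma) also draws each probe's variance toward that of all probes tested, so its p-values do not rest on a probe's own spread alone.

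TRH is a small peptide best known from neurons of the hypothalamus, from which it reaches the pituitary and makes thyrotrope cells release thyrotropin. Thyrotropin then acts on its receptor on thyroid cells, where it drives iodide uptake and hormone synthesis, and thyroid hormone in turn represses Trh and the thyrotropin subunit genes. Outside this axis TRH is a neuropeptide, and in the rat hippocampus its expression is induced by seizures. TRH receptors signal through Gq proteins and phospholipase C, and the thyrotropin receptor mainly through Gs and cyclic AMP.

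The stretch of the Trh promoter just before the transcription start is shown because it carries a short sequence described, in human and rat, as a site where both the thyroid hormone receptor and the cyclic AMP factor CREB act. The 250 bases before the start lie at chr6:92244651-92244900 on the minus strand of GRCm38.p6 (RefSeq), and the capitals mark the only match to TGACCTCA, from 57 to 50 bases before the start.
Trh: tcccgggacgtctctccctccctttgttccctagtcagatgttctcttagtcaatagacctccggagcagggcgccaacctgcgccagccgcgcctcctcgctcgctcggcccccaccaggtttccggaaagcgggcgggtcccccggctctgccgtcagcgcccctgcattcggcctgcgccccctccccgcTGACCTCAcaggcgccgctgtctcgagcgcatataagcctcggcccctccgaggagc
Read on either strand, TGACCTCA occurs in 636 of 32851 RefSeq promoter windows of the same length (1.94%). The match contains, on the reverse strand, the thyroid hormone receptor half-site AGGTCA, which 14% of the windows hold, and there is a TATAA match from 26 to 22 bases before the start, a motif that 22.8% of the windows hold. These matches are descriptions of the letters and say nothing of binding in these samples. RefSeq promoter windows were matched for 1 of the 4 genes.

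Probes well above background numbered 37535 and 37752 in iodine samples and 37894 and 37921 in control samples. The 75th percentile of the signal was 149.7 and 144.3 in iodine samples and 158.8 and 154.2 in control samples. Both iodine arrays were thus slightly dimmer before scaling. No spot was saturated, and all 4 arrays lay on 1 slide read in 1 scan. Iodine samples occupied slide columns 3 and 4 and controls columns 1 and 2, so group and slide position cannot be told apart. Of the hippocampal markers, 12 of 12, Prox1, Neurod6 and Fibcd1 among them, were well above background on all 4 arrays. Markers of other tissues were measurable too, 10 of 10 for choroid plexus and 9 of 9 for meninges and fibroblasts. The flag alone therefore does not tell the tissue.

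Of the 4 genes, Trh and Trhr were measurable and Trhr2 and Tshr were not. Well above background is the scanner software's flag for a spot clearly brighter than its background, and 2 of the 5 probes, 1 of Trh and 1 of Trhr, carried it on all 4 arrays. A second Trhr probe, the Trhr2 probe and the Tshr probe carried it on 0 of 4 arrays. Each probe was printed as 1 spot per array, so no member had repeated spots to average. The number of arrays, 2 per group, limits the precision of every comparison.

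**Figure D1:**
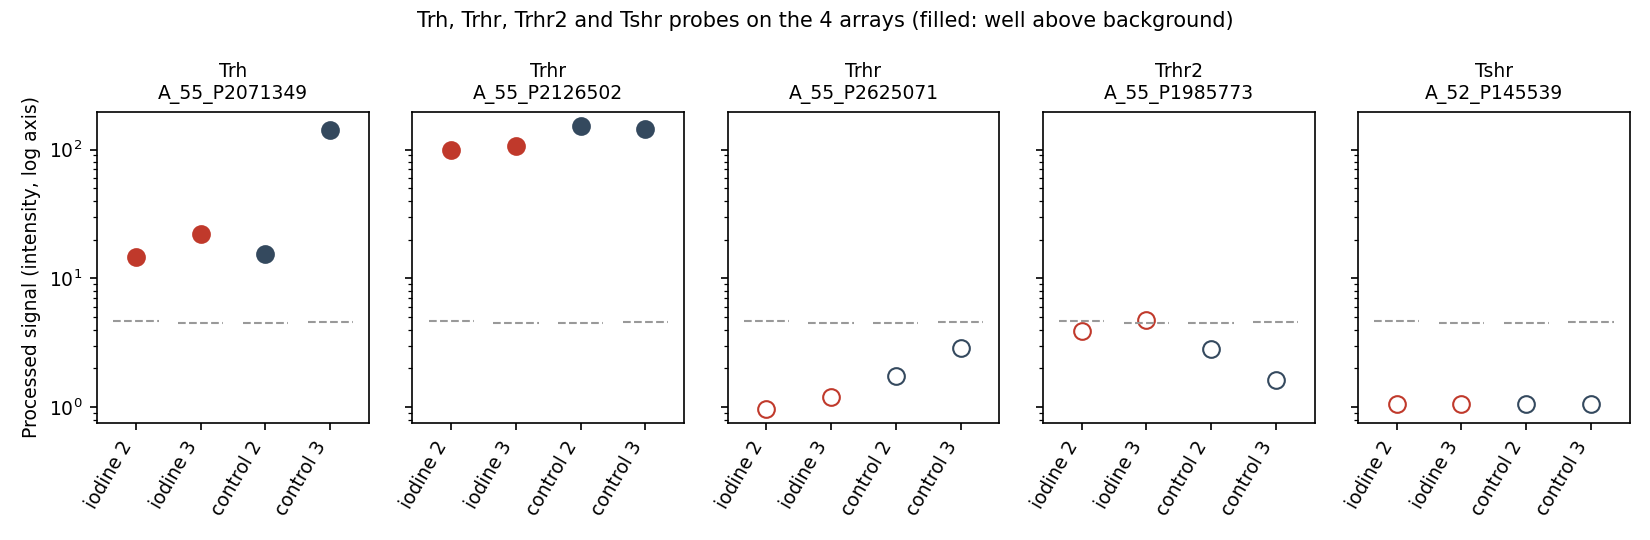
Processed signal (intensity, log axis) of the 5 member probes on each array, 20-fold iodine in red and control in dark blue, each point 1 array. Filled points are well above background, and the dashed mark is the lowest signal that carried that flag on the array. Trh stands out on control replicate 3 (142), and the measurable Trhr probe is lower on both iodine arrays (99.9 and 107) than on both control arrays (153 and 145).

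The ligand gene Trh was dim on 3 arrays and bright on 1. Its processed signal was 14.7 and 22.2 on the iodine arrays (replicates 2 and 3), and 15.4 and 142 on the control arrays (replicates 2 and 3). Control replicate 3 was high and the other 3 arrays lay far below it. The groups overlapped, since control replicate 2 fell between the iodine arrays before scaling and just below them after it. After log2 and scaling each array to its 75th percentile, Trh stood at 3.90 and 4.55 in iodine samples and at 3.88 and 7.13 in control samples.

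The group means of Trh were 4.22 ± 0.46 log2 units in iodine samples and 5.50 ± 2.29 in control samples (SD, n = 2 each). The fitted difference, iodine minus control, was -1.28 ± 1.14 (SE), with a 95% confidence interval of -4.37 to 1.81 and limma's adjusted p = 0.776 over 38231 probes. It did not exceed the spread between replicates. Without control replicate 3 the difference turned to 0.34 (limma's adjusted p = 0.858), and without control replicate 2 it was -2.90 (limma's adjusted p = 0.631), so its direction rests on 1 array. An exact permutation test over the 4 arrays gave p = 1 (two-sided), where the smallest p that 2 against 2 allows is 0.333.

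Between the iodine arrays, Trh was 1.56-fold brighter on replicate 3 than on replicate 2, a gap of 0.65 log2 units, and 4.15% of probes had a gap as large (median 0.123). Between the control arrays it was 9.48-fold brighter on replicate 3, a gap of 3.24. Only 6 of 38231 probes tested, Trh included, had a gap of that size or more between the control arrays, where the median was 0.115. Ranked by how far control replicate 3 exceeded the brightest of the other 3 arrays, Trh stood second of 38231 probes at 2.58 log2 units, after Tgtp2 at 2.59. Among the 5106 probes within 0.5 log2 units of its mean brightness, 4 had a range over the arrays as wide as Trh's 3.24, itself included, and the median range was 0.332.

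**Figure D2:**
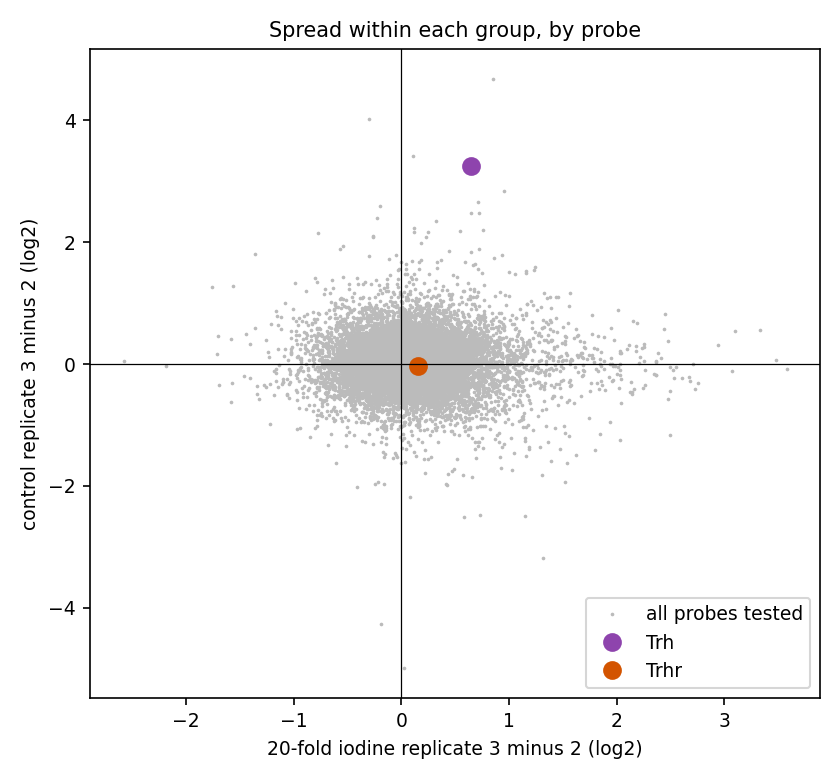
Difference between replicates 3 and 2 within the 20-fold iodine group (horizontal axis, log2) and within the control group (vertical axis, log2), 1 grey point per probe tested. Trh lies at 0.65 and 3.24, far from most probes on the control axis, and the tested Trhr probe at 0.15 and -0.04, in the middle of the cloud.

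The signal of Trh on control replicate 3 was not marked as faulty on the array. The median raw pixel intensity of the spot was 30 and 38.5 in iodine samples and 32 and 149 in control samples, over a local background of 15.5 to 16 on all 4 arrays. The scanner software put the error of the processed signal at 12.28% and 11.05% in iodine samples and at 12.23% and 10.03% in control samples, and the spot carried no outlier or saturation flag on any array. Among 36 measurable spots within 3 rows and columns of it, deviations from the 4-array mean on control replicate 3 ran from -0.31 to 0.43 log2 units with a median of 0.01, where Trh itself deviated by 2.26.

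Markers of the hypothalamus, the main site of Trh neurons, did not stand high on control replicate 3. Their median deviation there was -0.05 log2 units over 10 of 13 markers tested, and their summed scaled signal was 709 and 762 in iodine samples and 619 and 656 in control samples. Sim1 and Otp, from the list of transcription factors of hypothalamic TRH neurons, were not well above background on any array, with processed signals of at most 1.1 and 1.6. Thalamus and habenula markers (12 of 15 tested) were lowest on that array, at a median deviation of -0.19, with summed signals of 5997 and 6470 in iodine samples and 6730 and 5377 in control samples. Of the remaining marker lists, meninges and fibroblast genes (9 of 9 tested) stood at -0.62 and 0.35 in iodine samples and at -0.06 and 0.31 in control samples. Choroid plexus genes (10 of 10) stood at -1.28 and 0.95 in iodine samples and at 0.26 and 0.12 in control samples. Ependyma and tanycyte genes (7 of 8) deviated by 0.03 on control replicate 3. The part of these cells in the Trh values was not tested. In bulk tissue, fewer cells of a type and less RNA per cell cannot be told apart.

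The genes whose pattern over the 4 arrays was nearest to that of Trh were 3 interferon-inducible GTPase genes. Out of 15481 named genes, with predicted gene models left out, the smallest root mean square differences of the deviations belonged to Tgtp2 (0.26 log2 units), Gbp4 (0.27) and Iigp1 (0.41). These GTPases act in cell-autonomous defence against intracellular microbes. Tgtp2 stood at 6.19 and 7.14 in iodine samples and at 6.89 and 9.74 in control samples. For Gbp4 the values were 4.70 and 4.81 in iodine samples and 3.96 and 7.38 in control samples, and for Iigp1 5.09 and 5.33 in iodine samples and 5.51 and 7.68 in control samples. In each of them, as in Trh, control replicate 3 was the high array. The likeness describes 4 arrays of which 1 stands apart, and these genes have close relatives that a probe may also bind.

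**Figure D3:**
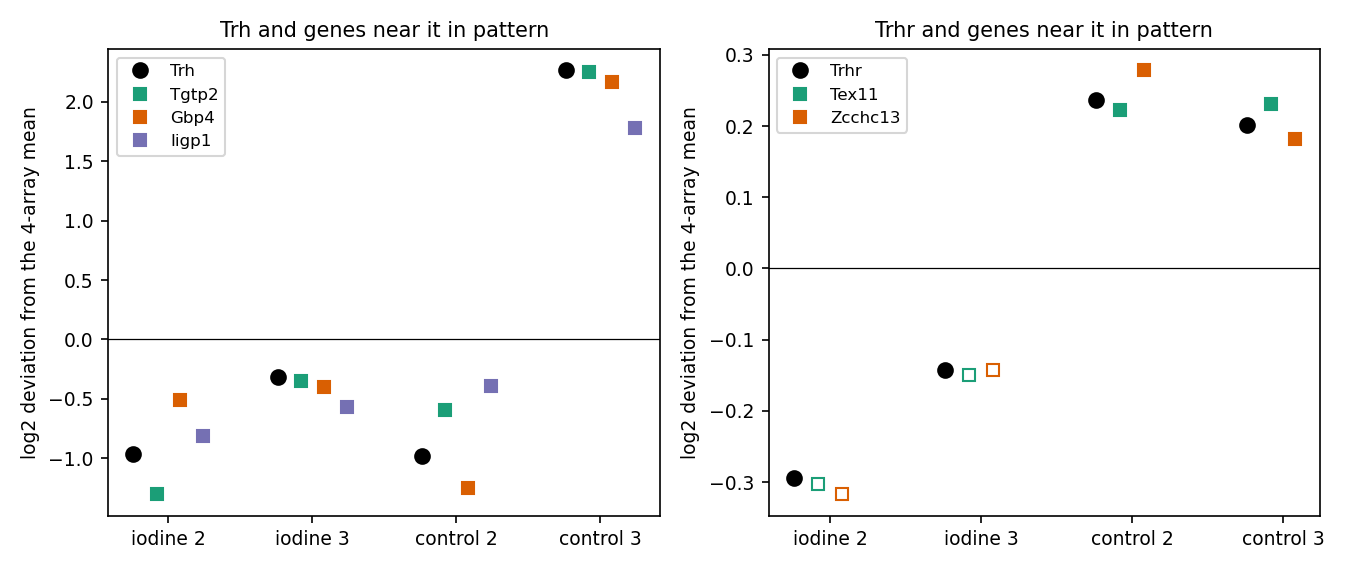
Log2 deviation from the 4-array mean for Trh (left) and the tested Trhr probe (right), each with named genes near it in pattern, by array. Tgtp2, Gbp4 and Iigp1 lie at 1.77 to 2.25 on control replicate 3 beside Trh at 2.26, and the genes near Trhr lie at 0.18 to 0.28 on the control arrays beside Trhr at 0.24 and 0.20. Open squares are not well above background on that array.

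The receptor gene Trhr, which encodes the TRH receptor of the pituitary and of many brain regions, had a lower signal in iodine samples. Its measurable probe read 99.9 and 107 on the iodine arrays and 153 and 145 on the control arrays. Both iodine values lay below both control values. A gap between replicates as large as that of Trhr was found in 42.0% of probes for iodine samples and in 81.9% for control samples. The scaled log2 signals were 6.66 and 6.81 in iodine samples and 7.19 and 7.16 in control samples. Iodine replicate 2, where Trhr was lowest, was also the array with the lowest choroid plexus signal, summed at 8302 and 41923 in iodine samples and 25330 and 22413 in control samples, and its part in the Trhr value was not tested.

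The group means of Trhr were 6.74 ± 0.11 in iodine samples and 7.17 ± 0.03 in control samples (SD, n = 2 each). The fitted difference was -0.44 ± 0.09 log2 units (SE), which is 0.738-fold, with a 95% confidence interval of -0.69 to -0.18. The unadjusted p by limma was 0.0083 and the adjusted p = 0.518, so Trhr did not pass the threshold of 0.05. Among all 38231 probes 0 passed (0%), against 25 with normexp background correction and 53 with an intensity trend and robust variances, and 3448 had an unadjusted p under 0.05 (9.02%), 1201 of them lower in iodine samples (3.14%). Groups that do not overlap, with iodine lower, were found in 18.5% of all probes, so the separation alone is common. By size, 953 probes (2.49%) had a difference as negative as that of Trhr or more so. The exact permutation test gave p = 0.333 (two-sided), the smallest it can give.

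Leaving out 1 array at a time left the Trhr difference between -0.51 and -0.36. Its direction could not change there, since both iodine values lay below both control values. Normexp background correction, which adds an offset of 50 and so draws the log2 differences of dim probes toward 0, gave -0.22 (limma's adjusted p = 0.375). Normexp and quantile normalization together gave -0.23, and quantile normalization alone gave -0.44. For Trhr the gap between replicates 3 and 2 was 0.15 in iodine samples and -0.04 in control samples, where for Trh it was 0.65 and 3.24. A second probe for the same transcript was not well above background on any array. It read 0.962 and 1.20 on the iodine arrays and 1.76 and 2.90 on the control arrays, where the lowest signals with the flag were 4.47 to 4.63, and no fold is given for it. The software marked that spot as positive against its local background on 3 of 4 arrays.

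Among the genes nearest to the tested Trhr probe over the 4 arrays were Tex11, a meiosis gene, and Zcchc13, at root mean square differences of 0.02 and 0.03 log2 units. Both were well above background on the control arrays (2.46 to 2.61 log2 units) and not on the iodine arrays (1.93 to 2.19, under the lowest signals with the flag there, 2.23 and 2.24). On the iodine arrays their likeness to Trhr was therefore not measured.

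Trhr2, a second TRH receptor gene found in rodents, read 3.92 and 4.71 on the iodine arrays and 2.85 and 1.63 on the control arrays. Iodine arrays were the higher, but all 4 values were flagged as not well above background, so neither a fold nor a direction is drawn from them. The reading of 4.71, on iodine replicate 3, exceeded the lowest signal that carried the flag on that array (4.49) but did not carry it. The software did mark the spot as positive against its local background on 4 of 4 arrays.

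Tshr was at the floor of the measurement. Its processed signal was 1.06 on each of the 4 arrays, positive against the local background on 0 of them, while the spot's median pixel intensity exceeded the local background by 1 and 0 in iodine samples and by 2 and 0 in control samples. A level of Tshr messenger RNA was not detectable with this probe at this sensitivity. Its closest relatives among the glycoprotein hormone receptors, Fshr and Lhcgr, which bind follitropin and lutropin, were likewise not well above background on any array.

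Among the wider group of receptors related to Tshr, 3 of 7 genes were tested and 0 passed. The median difference was -0.19 log2 units (0.03 with normexp), against -0.01 over 16794 genes each represented by its brightest measurable probe. Lgr5, a receptor of R-spondins, differed by -0.33 ± 0.17 (SE; -0.01 with normexp, and -0.54 to -0.13 on leaving out 1 array), Lgr4, another, by -0.13 ± 0.08, and the relaxin receptor gene Rxfp1 by -0.19 ± 0.17. Another Lgr4 probe gave 0.13. Lgr5 and Rxfp1 were dim, with processed signals of at most 19.15 and 14.8. In 2 of the 3 the groups did not overlap, a separation that 39.9% of genes showed.

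Ligands of the thyrotropin receptor were mostly dim in this tissue. Tshb, the subunit that gives thyrotropin its specificity, was not well above background on any array, with a processed signal of at most 3.19. Cga, the alpha subunit that thyrotropin shares with the gonadotropins, stood at 5.65 and 5.14 log2 units in iodine samples and at 3.94 and 3.98 in control samples. Both iodine arrays were above both control arrays, and the difference was 1.43 ± 0.19 (SE), with limma's adjusted p = 0.518. With an intensity trend and robust variances the adjusted p of Cga was 0.036, and with normexp the difference was 0.55. The subunits of thyrostimulin, a second ligand of the receptor, differed by 0.06 ± 0.12 for Gpha2 and by -0.14 ± 0.19 for Gphb5.

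Signals of most other anterior pituitary genes tested were also higher in iodine samples, the hormone genes Gh and Prl by 2.16 ± 0.31 and 1.97 ± 0.68 log2 units (SE, 0 past the threshold). With normexp the difference of Gh was 1.05 and passed (limma's adjusted p = 0.048), and that of Prl ran from 1.02 without control replicate 2 to 2.91 without control replicate 3. Of 12 markers, Cga included, 5 were tested, 4 of them higher in iodine samples and Lhb, the lutropin subunit gene, at -0.11 ± 0.11, and their summed scaled signal was 2330 and 1728 in iodine samples and 599.6 and 1164 in control samples. The 7 others, among them Tshb and Pou1f1, the factor that specifies thyrotropes, were not well above background on any array. The part of pituitary RNA in the Cga and Trhr values was not tested.

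Enzymes that make and break down TRH were all measurable, and 0 of 9 passed the adjusted threshold. Their median difference was -0.01, equal at this rounding to that of all genes, with 4 higher and 5 lower. Pam, which amidates the peptide, stood at 6.80 and 6.74 in iodine samples and at 6.53 and 6.52 in control samples. Its difference of 0.25 ± 0.08 (SE) had an unadjusted p of 0.034 and a limma adjusted p of 0.538, and another Pam probe gave 0.00. An unadjusted p under 0.05 was found in 6.35% of genes.

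The proprotein convertase genes Pcsk1 and Pcsk2 differed by -0.07 ± 0.18 and 0.07 ± 0.10 log2 units (SE). Cpe, the carboxypeptidase that trims the cleaved peptides, differed by -0.15 ± 0.09, and the glutaminyl cyclase genes Qpct and Qpctl, whose products form the modified first residue, by -0.15 ± 0.08 and 0.11 ± 0.08. Trhde, the membrane enzyme that degrades TRH and is known in rat pituitary to be induced by thyroid hormone, stood at 6.74 and 6.63 in iodine samples and 6.71 and 6.73 in control samples. Its difference was -0.04, with a 95% confidence interval of -0.27 to 0.19. Pgpep1 and Prep, cytosolic peptidases that can cleave TRH, differed by 0.03 ± 0.09 and -0.01 ± 0.08.

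**Figure D4:**
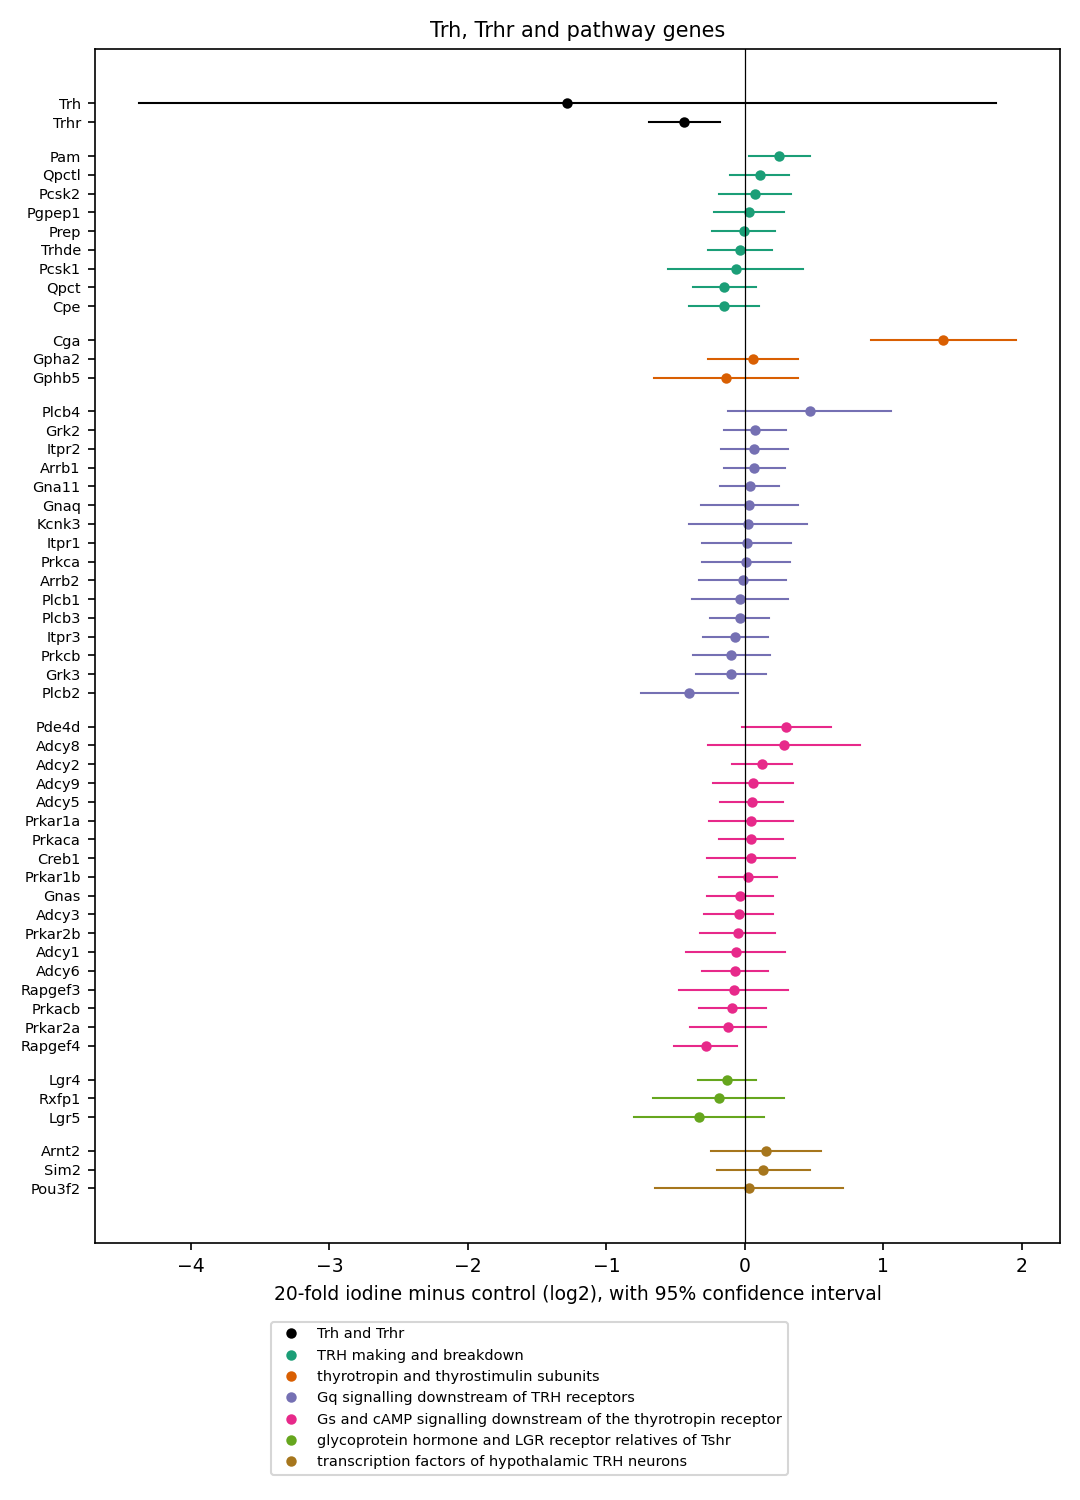
Difference in log2 signal, 20-fold iodine minus control (horizontal axis), with the 95% confidence interval of the fit, for Trh, Trhr and the pathway genes shown, coloured by list. Trh has the widest interval (-4.37 to 1.81), the intervals of Trhr, Cga, Pam, Plcb2 and Rapgef4 lie on 1 side of 0, and most downstream genes lie near 0.

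Downstream of the TRH receptors, 17 of 18 Gq pathway genes were tested and 0 passed, with a median difference of 0.01, 10 higher and 7 lower. In 8 of the 17 the groups did not overlap (39.9% of all genes). Plcb2, a phospholipase C beta gene known from blood cells and taste cells, stood at 2.97 and 2.99 in iodine samples and 3.53 and 3.23 in control samples, a difference of -0.40 ± 0.13 (SE, unadjusted p = 0.033, limma's adjusted p = 0.536). With normexp it was -0.03, and leaving out 1 array gave -0.55 to -0.25. Plcb4, the isoform abundant in thalamus, differed by 0.47 ± 0.22 (0.21 without iodine replicate 3 and 0.73 without iodine replicate 2), and thalamus and habenula markers were highest on the same iodine array, replicate 3 (median deviation 0.44, Plcb4 6.56 against 6.04 on iodine replicate 2). Their part in the Plcb4 value was not tested. The channel gene Kcnk9, whose product TRH can inhibit, was not well above background on any array.

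Downstream of the thyrotropin receptor, all 18 Gs and cyclic AMP pathway genes were tested and 0 passed, with a median difference of -0.01, 9 higher and 9 lower, and 5 of 18 with groups that did not overlap (27.8%, against 39.9% of all genes). Rapgef4, which encodes the cyclic AMP sensor EPAC2, stood at 9.61 and 9.56 in iodine samples and at 9.91 and 9.83 in control samples. That difference of -0.28 ± 0.08 (SE, unadjusted p = 0.025) had a limma adjusted p of 0.533, and another Rapgef4 probe gave 0.21. Pde4d, a cyclic AMP phosphodiesterase gene, differed by 0.30 ± 0.12, with probes from -0.14 to 0.32, and the adenylyl cyclase gene Adcy2 by 0.12 ± 0.08.

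Transcription factors of hypothalamic TRH neurons were tested in 3 of 5 cases, and 0 passed. Arnt2 and Pou3f2, both also expressed elsewhere in the brain, differed by 0.15 ± 0.15 and 0.03 ± 0.25 log2 units (SE), and Sim2 by 0.13 ± 0.12, with another probe at 0.76.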

How the data were processed

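The authors deposited a scanner file for every array. Per the file headers, version 12.1.1.1 of Agilent Feature Extraction wrote it. The intensity analysed is the deposited processed signal, with background subtracted and spatial trends removed inside each array, per the file headers, and with no step that makes arrays comparable. It was put on the log2 scale, spots of a probe were averaged without outlier spots (47 to 70 per array), and each array's 75th percentile was subtracted, with the mean percentile added back. A probe was kept where at least 2 of the 4 arrays, of either group, had it well above background (38231 of 56605). The files hold no gene names, so accessions were matched to RefSeq (GRCm38.p6), which named 32994 probes (58.3%). Probes listed under other kinds of accession were not named. Genes outside the 4 members are given by their brightest kept probe.

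The groups were compared with limma 3.58.1 (R 4.3.3, with version 1.17.8 of the data.table package), two-sided, adjusted by Benjamini-Hochberg over all probes. The fit was checked on simulated data. Plots used matplotlib 3.10.9 (Python 3.11.15). Normexp used the median spot intensity, since the files have no mean. The members and lists were chosen with earlier results of these data known. Named genes were every gene of 3 short pathway lists and the 3 smallest unadjusted p in each other pathway list, and 3 nearest genes per measurable member, of which some are not reported here. The closing section gives the effect of the alternatives.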

Additional observations from a re-analysis of the deposited data

How the results depend on the processing

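The fitted differences, the probe counts and the list medians were recomputed under 15 alternatives, and the replicate gaps under the 11 that keep all arrays. The nearest genes, the ranks of gaps, the spot neighbours and the marker sums by array were computed under the reported setting alone. Trhr stayed lower in iodine in 15 of 15 and past the threshold in 0, and Trh stayed lower in 14 of 15. Many of these alternatives could not change a direction. A change of filter, variance model, block or probe choice left both differences as they were. Leaving out 1 array could not reverse Trhr, whose groups did not overlap. The count of probes past the adjusted threshold was 0, except 25 with normexp (offset 50) and 53 with an intensity trend and robust variances, and leaving out 1 array gave 0 in each case. Trhr2, Tshr and the second Trhr probe entered the fit only in the alternative without a filter on dim probes. They had no call there (limma's adjusted p = 0.6317, 0.7055 and 0.6502). Leaving out 1 array moved Trh between -2.90 and 0.34, the positive value being that without control replicate 3. Cga alone of the named pathway genes passed in any alternative (adjusted p = 0.036 with an intensity trend), and of the pituitary genes Gh passed with normexp (0.048). The iodine and control arrays share replicate numbers 2 and 3, but their deviations did not go together (r = -0.02 across probes, which are not independent replicates). With the replicate number as a block, 0 probes passed, and the adjusted p was 0.622 for Trhr and 0.694 for Trh (-1.28 and -0.44 log2 units for Trh and Trhr, as without it). The gap of Trh between the control arrays was 1.48 with normexp and 1.45 with normexp and quantile normalization, against 3.24. Slide as a block was not run, since there was 1 slide. Of the 24 named pathway genes, 12 kept their direction throughout, but each of the 24 moved by over 1.5 times in at least 1 alternative, 18 with normexp and 17 on leaving out 1 array. With normexp the sign changed for Lgr4 (0.030), Rxfp1 (0.039), Gphb5 (0.065), Lhb (0.0027) and Pou3f2 (-0.0098), with quantile normalization for Prep (0.0001), with both for Prep (0.0001), Lgr4 (0.0069), Gphb5 (0.0026), Gpha2 (-0.0028) and Pou3f2 (-0.016), and with each gene's probes averaged for Lgr4 (0.0008). Leaving out 1 array, the values ran from -0.0081 to 0.16 for Pcsk2, -0.089 to 0.015 for Trhde, -0.30 to 0.16 for Pcsk1, -0.042 to 0.10 for Pgpep1, -0.051 to 0.030 for Prep, -0.38 to 0.0047 for Rxfp1, -0.39 to 0.12 for Gphb5, -0.073 to 0.18 for Gpha2, -0.005 to 0.27 for Sim2, -0.026 to 0.33 for Arnt2 and -0.30 to 0.36 for Pou3f2. The cause of these changes was not tested, beyond the 1 array fewer. Without 1 array its group has a single sample, assumed to vary like the other group. Signals under about 4.5 are not measurable here, and a signal just above that need not carry the flag.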

Other observations

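Of the probes tested, 2 stood at least 2 log2 units above the other 3 arrays on iodine replicate 2, 2 on iodine replicate 3, 2 on control replicate 2 and 9 on control replicate 3, and Trh was among these 9. On control replicate 3 the measurable Trhr probe deviated by 0.20 log2 units from its 4-array mean, and astrocyte markers, tested in 7 of 7 cases, by a median of 0.06.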
